A study of Mus musculus with 16 samples.

Results

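The 10 Frizzled genes of the mouse, Fzd1 to Fzd10, encode the cell surface receptors that bind Wnt proteins. They were taken by name (rows FZD1, FZD2, FZD3, FZD4, FZD5, FZD6, FZD7, FZD8, FZD9 and FZD10) from a table of RNA levels in aortic valves with 20992 gene rows, and all 10 had a row. The family was chosen by a measured value, a low level of Fzd2 in mice with both models. That level is therefore described here without a test. Of the 16 valve samples listed for the series, all on the C57BL/6J background, 15 libraries were analysed. HC/HT replicate 4 was not analysed here, so every HC/HT value rests on 3 libraries and could differ with a further one. HC/HT mice, with 3 libraries, combine the ApoE knockout with transgenes for human renin and human angiotensinogen. HC mice, with 4 libraries, carry the ApoE knockout and model hypercholesterolaemia. HT mice, with 4 libraries, overexpress human renin and human angiotensinogen and model hypertension. Control mice (CON), with 4 libraries, carry neither. The promoters of the transgenes, the diet and the age of the mice are not given in the sources used here, and neither is whether valves were pooled. The p-values below measure the spread between libraries, which are taken as separate mice because the design speaks of 4 per group.

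A Frizzled receptor crosses the membrane as a bundle of helices and holds the Wnt ligand in a cysteine-rich domain outside the cell. With the co-receptor Lrp5 or Lrp6 it passes the signal through Dishevelled to stabilise beta-catenin, which then drives target genes. With Ror or Ryk co-receptors, or with the planar polarity proteins, it acts on the cytoskeleton or on calcium instead. In the heart, Wnt signalling takes part in the formation of valve cushions and valve matrix. By sequence the family falls into subgroups, and the coding sequences showed this. Fzd2 was 81.5% identical to Fzd1 and 78.5% identical to Fzd7. Fzd1 and Fzd7 were 77.9% identical. Fzd5 and Fzd8 were 76.3% identical, Fzd9 and Fzd10 70.8%, and Fzd3 and Fzd6 63.7%. The least alike pair, Fzd3 and Fzd8, was 52.2% identical.

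Because Fzd2 is the gene that stood low and Fzd1 and Fzd7 are its nearest relatives, a stretch of 56 coding bases is shown around the longest run that Fzd2 and Fzd7 share, which is 38 bases. The letters come from the GENCODE M21 transcripts on mm10 (GRCm38), 5′ to 3′ on the coding strand. Capitals mark the bases that differ from Fzd2, 3 in Fzd7 and 2 in Fzd1. The stretch lies in the only exon of each gene, at chr11:102606055-102606110 on the plus strand for Fzd2, at chr1:59484289-59484344 on the plus strand for Fzd7 and at chr5:4756007-4756062 on the minus strand for Fzd1.
Fzd2: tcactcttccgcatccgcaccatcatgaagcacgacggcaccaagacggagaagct
Fzd7: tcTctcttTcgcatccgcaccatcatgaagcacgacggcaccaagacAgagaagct
Fzd1: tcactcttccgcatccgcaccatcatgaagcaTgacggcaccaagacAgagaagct
The longest run that Fzd2 shares with Fzd1 lies elsewhere and is 47 bases, so both relatives differ from Fzd2 within any 50 coding bases. Of the 3614 windows of 50 bases in the Fzd2 transcript, 0 occur in a transcript of another annotated gene. The same count was 0 for Fzd1, Fzd7, Fzd8, Fzd9 and Fzd10. Fzd5 shared 16.6% of its windows with the overlapping antisense transcript Gm38058, and Fzd6 shared 2.41% with Gm26704. Whether the counting used strand is not stated, so for Fzd5 and Fzd6 reads of these partners cannot be told apart.

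The deposited table gives normalised counts as whole numbers, with nearly equal library totals between 10207928 and 10210305. All values here were multiplied by one common factor, 0.0980, and are given as units. Because totals were made equal, the sequencing depth of a library is unknown. The 4 most abundant rows took between 32.4% and 62.7% of a library, and a larger share of these lowers every other gene. Median-of-ratios scaling, which sets each library by its typical gene, gave factors between 0.626 and 1.32, and a number of differences are also given on that scale. In 13 of the 15 libraries at least 85% of the values up to 40 deposited counts lay within 0.5 of a multiple of one step. Such a step, read as 1 sequenced read, was worth between 0.171 and 0.266 units. In HC replicate 2 and HT replicate 2 the steps were less clear, with 73.0% and 50.3% of values on them, so read numbers there are rougher. Females made up 2 of 3 HC/HT, 3 of 4 HC, 2 of 4 HT and 1 of 4 CON libraries, and sex was a term of each fit. Apoe, the gene removed in the knockout, lay between 2.15 and 12.3 units in the 7 knockout libraries and between 56.6 and 1014 units in the 8 others, as the labelled genotypes say. The libraries least like the others, by median Spearman correlation, were replicate 2 of HC/HT and replicates 2 and 3 of HT.

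Fzd1 was the most abundant Frizzled of the valve per length of transcript. It stood at 21.3 ± 9.42 units per kb of exon (mean ± SD over 15 libraries), above Fzd6 in 15 of 15 libraries. Fzd6 followed at 8.08 ± 2.24 units per kb, and exceeded Fzd7 in 14 of 15 libraries. Fzd7 stood at 4.89 ± 2.06 units per kb and exceeded Fzd2 in 14 of 15 libraries. Fzd2 stood at 2.55 ± 1.88 units per kb and exceeded Fzd4 in 12 of 15 libraries. The next members lay close together. Fzd4 (1.26 ± 0.560 units per kb) exceeded Fzd5 (1.26 ± 0.482) in 6 of 15 libraries, and Fzd5 exceeded Fzd3 (0.938 ± 0.393) in 11. Fzd10 (0.569 ± 0.371 units per kb), Fzd9 (0.533 ± 0.509) and Fzd8 (0.502 ± 0.312) had the lowest means. Fzd10 exceeded Fzd9, and Fzd9 exceeded Fzd8, in 8 of 15 libraries each, so their order is not settled by these data. Fzd2 was the member whose place changed most between groups: by mean level per kb it ranked 7 of 10 in HC/HT valves and 4 of 10 in HC, HT and CON valves.

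**Figure D1:**
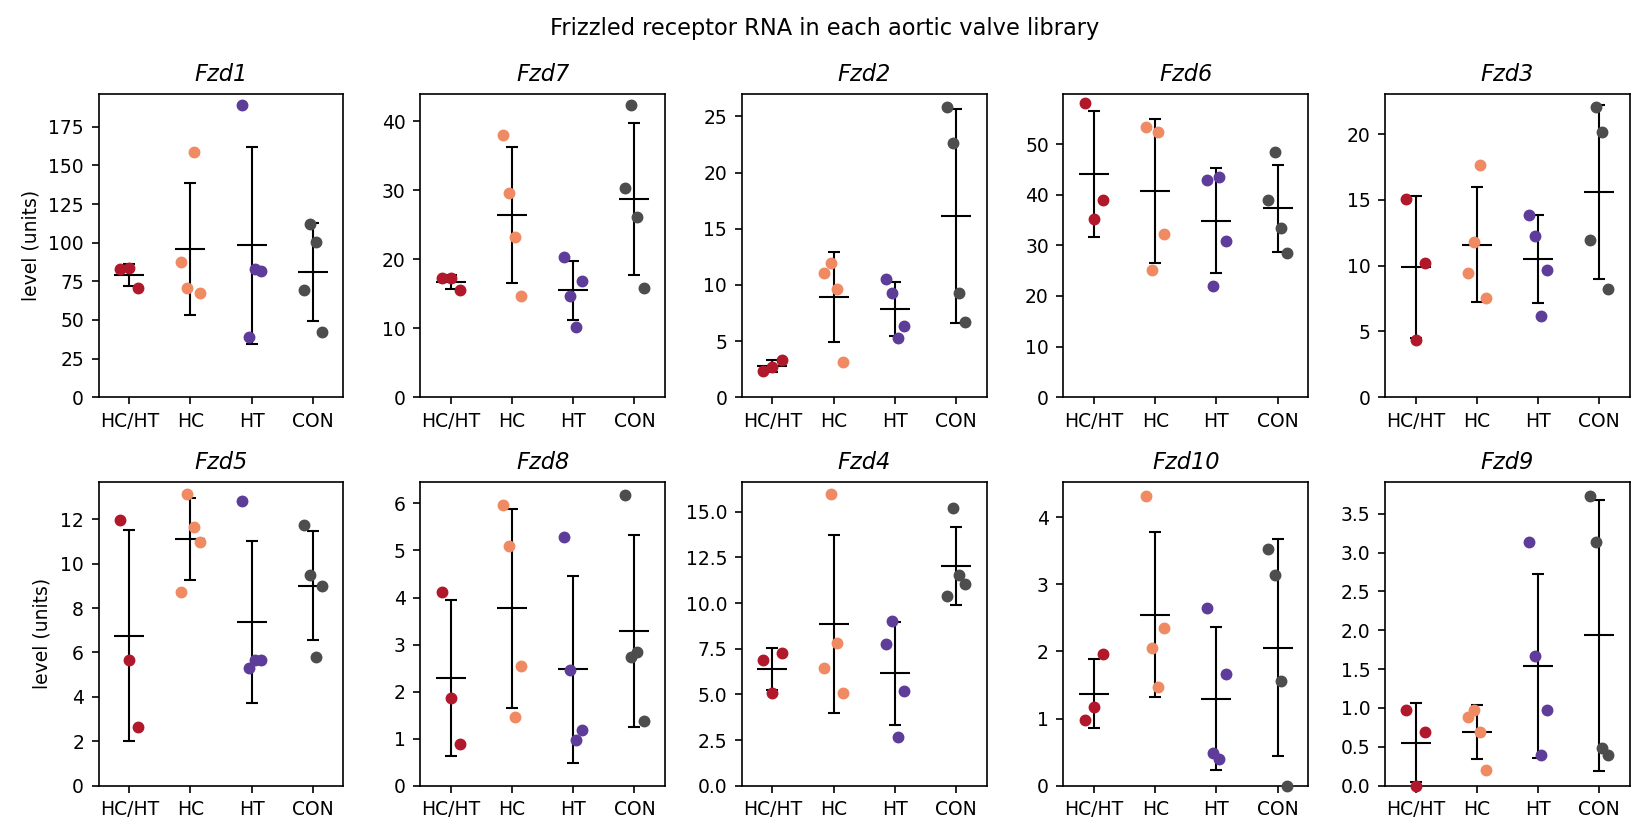
Level of each Frizzled gene in units (deposited value times one common factor) in every library, with HC/HT (n = 3), HC, HT and CON (n = 4 each) side by side. Points are libraries, the short line is the group mean and the bars are the SD. Each panel has its own axis starting at 0. Fzd2 lies between 2.35 and 3.33 units in HC/HT valves and between 6.66 and 25.9 units in CON valves, while values of Fzd1 and Fzd6 overlap between all groups.

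Fzd2 is a receptor known for binding Wnt5a and for signals both with and without beta-catenin. Its levels were 2.35, 2.64 and 3.33 units in HC/HT valves and 11.1, 12.0, 9.60 and 3.13 units in HC valves. HT valves had 10.5, 9.31, 5.29 and 6.37 units, and CON valves 25.9, 22.6, 9.31 and 6.66 units. The 3 HC/HT libraries were low and close together, and lay below every HT and every CON library. They were not below every HC library, since HC replicate 4 fell within their range. CON valves spread widely, with replicates 1 and 2 more than the HC and HT libraries and replicates 3 and 4 among them. The group means were 2.78 ± 0.503 units in HC/HT, 8.94 ± 3.99 in HC, 7.86 ± 2.44 in HT and 16.1 ± 9.54 in CON valves (SD).

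On the log2(value + 1) scale the fitted difference of Fzd2 in HC/HT against CON valves was -2.13 (SE 0.49), and -1.93 with median-of-ratios scaling. It was -1.25 (SE 0.46) against HC valves and -1.25 (SE 0.47) against HT valves. These values chose the family, so they are a description. The pseudocount of 1 unit makes differences of such low levels smaller. Taken as reads of one step each, Fzd2 rested on about 12, 14 and 15 reads in the HC/HT libraries, between 15 and 65 in HC, between 26 and 60 in HT and between 33 and 117 in CON libraries. In a whole valve, fewer Fzd2-expressing cells and less Fzd2 RNA per cell cannot be told apart.

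Fzd2 was intermediate in the single models. Against CON, the log2 difference was -0.87 (SE 0.46) in HC valves, with an unadjusted p of 0.069 and an adjusted p of 1.00 from limma. In HT valves it was -0.88 (SE 0.44), with an unadjusted p of 0.055 and an adjusted p of 0.392. The HT difference moved to -0.44 with median-of-ratios scaling, while the HC difference was -0.86. Neither passed the test, and both comparisons use the CON libraries that also entered the choice of the family. HC values between 3.13 and 12.0 units and HT values between 5.29 and 10.5 units overlapped those of CON valves.

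Set against other Frizzled genes of the same library, which no scaling between libraries can change, Fzd2 was again lowest in HC/HT valves. It made up 1.54%, 2.10% and 2.79% of the summed Frizzled level per kb in HC/HT valves. The share lay between 2.76% and 8.38% in HC, between 4.16% and 10.6% in HT and between 5.72% and 15.3% in CON valves. HC/HT shares did not reach those of HT or CON valves and overlapped HC, again through HC replicate 4. The log2 ratio of Fzd2 to Fzd7 averaged -2.60 ± 0.345 in HC/HT, -1.65 ± 0.451 in HC, -0.99 ± 0.311 in HT and -0.97 ± 0.548 in CON valves. HT and CON valves thus had nearly the same Fzd2 to Fzd7 ratio, with both genes low together in HT valves. The log2 ratio of Fzd2 to Fzd1 averaged -4.85 in HC/HT, -3.51 in HC, -3.47 in HT and -2.45 in CON valves. These ratios hold the Fzd2 values that chose the family and get no test.

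**Figure D2:**
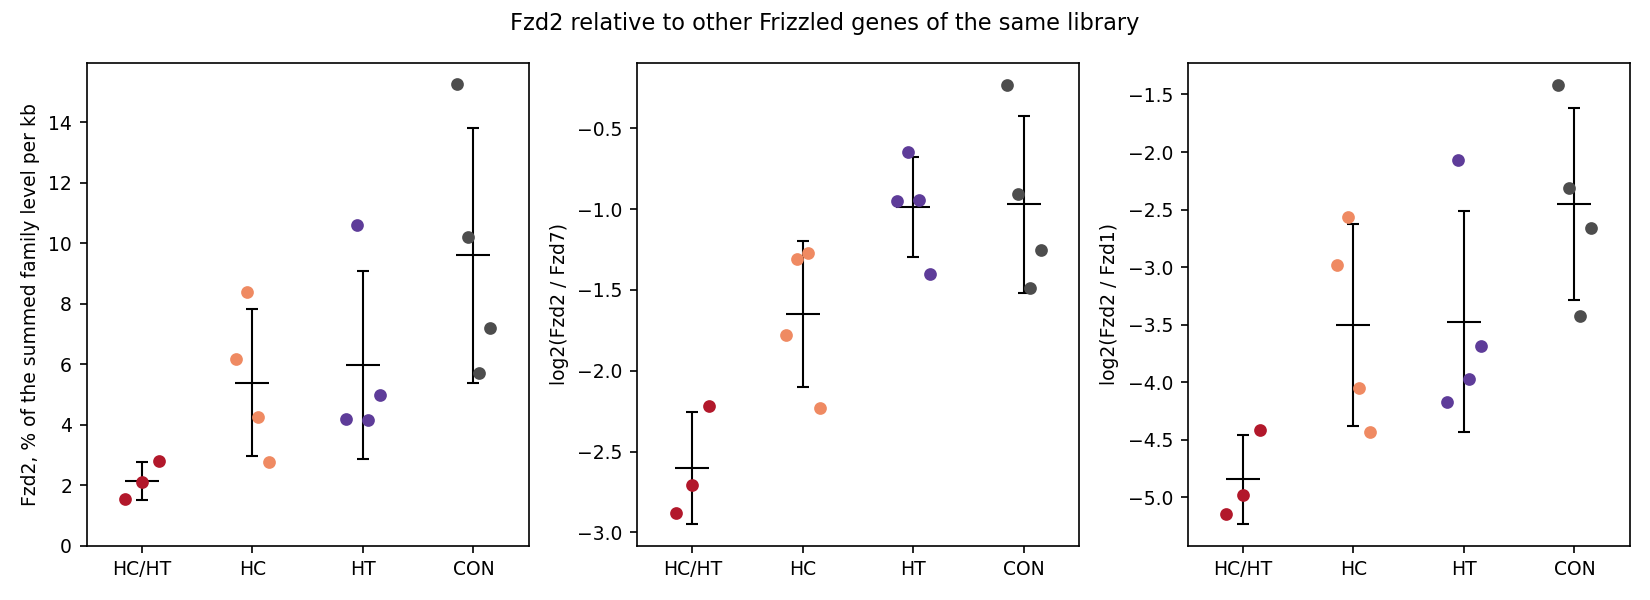
Fzd2 within each library, as a percentage of the summed Frizzled level per kb (left), as log2 of its ratio to Fzd7 (middle) and as log2 of its ratio to Fzd1 (right). Points are libraries of HC/HT (n = 3), HC, HT and CON (n = 4 each), lines are means and bars the SD. HC/HT libraries hold shares between 1.54% and 2.79%, against 5.72% to 15.3% in CON libraries.

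Fzd1 and Fzd7 are the closest relatives of Fzd2 by sequence. Fzd1, a receptor linked to beta-catenin signalling, had 83.2, 83.6 and 70.9 units in HC/HT valves and 87.5, 70.5, 159 and 67.6 units in HC valves. It had 189, 39.0, 83.3 and 81.8 units in HT valves, against 69.1, 112, 100.2 and 42.1 units in CON valves. All 4 groups overlapped, and HC replicate 3 and HT replicate 1 were the high libraries. The log2 difference of Fzd1 from CON was -0.06 in HC/HT, 0.11 in HC and 0.08 in HT valves. With median-of-ratios scaling these were 0.15, 0.12 and 0.55.

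Fzd7, a receptor used by stem and progenitor cells in several tissues, had 17.3, 17.2 and 15.5 units in HC/HT valves. It had 38.0, 29.6, 23.2 and 14.7 units in HC valves, 20.3, 14.6, 10.2 and 16.8 units in HT valves, and 30.4, 42.4, 26.2 and 15.9 units in CON valves. On the deposited scale hypertensive valves, with or without the knockout, lay at the low end, where 1 HC and 1 CON library also lay. Median-of-ratios scaling raises HT replicates 2 and 3 most of all libraries (factors 0.626 and 0.660). In HT against CON the log2 difference was -0.86 (SE 0.35), with an unadjusted p of 0.020 and an adjusted p of 0.367. It was -0.41 with median-of-ratios scaling and -0.57 without the 3 libraries of lowest correlation, HT replicates 2 and 3 and HC/HT replicate 2. With limma array weights, which count unlike libraries less, Fzd7 was called (-1.11, adjusted p of 0.049), as were 2.75% of all genes.

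Fzd4, the receptor for norrin and a regulator of blood vessel growth, had 6.86, 5.09 and 7.25 units in HC/HT valves. HC valves had 6.46, 16.0, 7.84 and 5.09 units, HT valves 7.74, 9.01, 2.64 and 5.19 units, and CON valves 10.4, 15.2, 11.6 and 11.1 units. On the deposited scale every HC/HT and every HT library lay below every CON library, and 3 of 4 HC libraries did too. Median-of-ratios scaling divides HT replicate 2 by 0.626 and CON replicates 1 and 2 by 1.30 and 1.32. That puts HT replicate 2 above both, so HT and CON values overlap on that scale. In HT against CON the log2 difference was -0.98 (SE 0.40), with an unadjusted p of 0.021 and an adjusted p of 0.367. It was -0.57 with median-of-ratios scaling and -0.78 without the 3 libraries of lowest correlation. In HC/HT against CON it was -0.86 (SE 0.44).

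Fzd5 and Fzd8 form a subgroup tied to beta-catenin signalling in development. Fzd5 had 12.0, 5.68 and 2.64 units in HC/HT valves and between 8.72 and 13.1 units in HC valves. It had between 5.29 and 12.8 units in HT valves and between 5.78 and 11.8 units in CON valves. Fzd8 lay between 0.882 and 4.11 units in HC/HT, 1.47 and 5.98 in HC, 0.980 and 5.29 in HT, and 1.37 and 6.17 in CON valves. Both overlapped between all groups, and no difference of either passed the test.

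Fzd3 and Fzd6 are known for planar cell polarity, the alignment of cells within a sheet and of growing axons. Fzd6 had 58.2, 35.2 and 38.9 units in HC/HT valves, and its group means were 44.1 ± 12.4 in HC/HT, 40.8 ± 14.2 in HC, 34.9 ± 10.4 in HT and 37.3 ± 8.59 in CON valves. It was the only member with a positive difference in HC/HT against CON, at 0.18 (SE 0.36), which was 0.38 with median-of-ratios scaling. That scaling made Fzd1 positive there as well. Fzd3 averaged 9.86 ± 5.39 units in HC/HT, 11.6 ± 4.39 in HC, 10.5 ± 3.34 in HT and 15.6 ± 6.59 in CON valves. Its groups overlapped throughout.

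Fzd9 and Fzd10 were near the lowest levels the table can show. Fzd9, a receptor studied in bone formation, reached 1 unit in 4 of 15 libraries, CON replicates 1 and 2 and HT replicates 1 and 2, which is the smallest number that let a gene be tested. It had 0.980, 0 and 0.686 units in HC/HT valves and between 0.196 and 0.980 units in HC valves. HT valves had between 0.392 and 3.13 units and CON valves between 0.392 and 3.72 units. Fzd10 averaged 1.37 ± 0.518 units in HC/HT, 2.55 ± 1.23 in HC, 1.30 ± 1.07 in HT and 2.06 ± 1.61 in CON valves. The values of both genes rest on between 0 and 25 reads per library if read by the step, so differences of these 2 genes are not resolved at this depth.

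Across the comparisons, 0 Frizzled genes passed at an adjusted p under 0.05, and the count was read against all 15004 genes tested. In HC against CON, 0 of 10 passed, against 0.167% of all genes. At an unadjusted p under 0.05 it was 0 of 10, against 4.01%. In HT against CON, 0 of 10 passed, against 0% of all genes, and 2 of 10 (Fzd4 and Fzd7) had an unadjusted p under 0.05, against 12.8%. On the deposited scale groups did not overlap for 1 of 10 there (Fzd4, lower in HT), against 4.21% of all genes, or 4.15% with HT lower. The share of low p-values among the members was thus near that of all genes.

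For the combined model, Fzd2 was left out of the tests. Against HC valves, 0 of 9 passed in HC/HT, against 0% of all genes, with 0 of 9 at an unadjusted p under 0.05, against 4.41%. Against HT valves, 0 of 9 passed, against 0.373%, with 0 of 9 at an unadjusted p under 0.05, against 8.71%. Fzd2 was the 1 gene of 10 whose HC/HT and HT values did not overlap, where 6.17% of all genes did not, or 1.18% with HC/HT lower. Between HC/HT and CON, Fzd2 and Fzd4 were the 2 of 10 that did not overlap, both lower in HC/HT, and 10.6% of all genes did not, or 7.66% with HC/HT lower. Both counts of non-overlap hold the HC/HT values of Fzd2 that chose the family, so nothing is read from either.

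Most members had lower fitted values in HT than in CON valves, as did most genes. In HT against CON, 9 of 10 log2 differences were negative with a median of -0.38, beside a median of -0.42 over all genes tested. With median-of-ratios scaling, 6 of 10 were negative and the medians were -0.05 for the members and -0.01 for all genes. In HC against CON, 5 of 10 were negative with a median of -0.10, beside -0.02 for all genes. For HC/HT against HC, 9 of 10 were negative with a median of -0.40, beside -0.18 for all genes. For HC/HT against HT, 6 of 10 were negative with a median of -0.09, beside 0.21 for all genes. With median-of-ratios scaling, 9 of 10 were negative in that comparison, with a median of -0.31 beside -0.01. The counts and medians that use HC/HT valves hold the Fzd2 values that chose the family, so nothing is read from them.

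**Figure D3:**
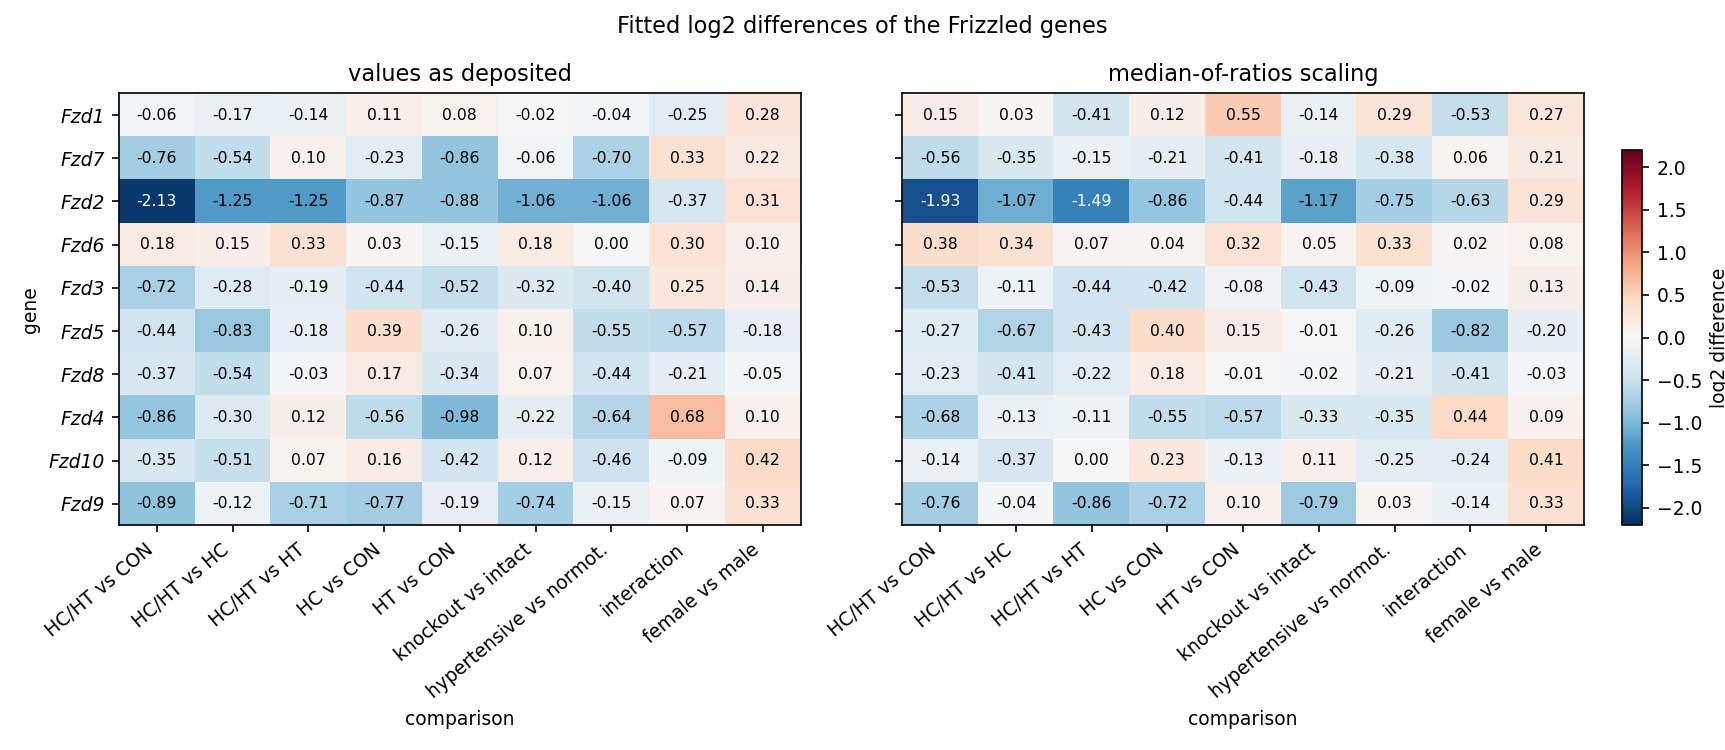
Fitted log2 differences, on log2(units + 1), of the 10 Frizzled genes (rows, ordered by subgroup) in 9 comparisons (columns), from the values as deposited (left) and after median-of-ratios scaling (right). Blue is lower and red is higher in the first-named group. Fzd2 has the darkest blue cells, at -2.13 and -1.93 for HC/HT against CON. Many of the paler blue cells of HT against CON fade on the right, and Fzd1 turns red there (0.55).

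Libraries were also pooled by each model. Between the 7 knockout and 8 Apoe-intact libraries, 0 of the 9 members tested passed, against 1.47% of all genes. Fzd9 had the smallest p there, with a log2 difference of -0.74 (SE 0.34), an unadjusted p of 0.038 and an adjusted p of 0.454, and 1 of 9 had an unadjusted p under 0.05, against 9.84% of all genes. The 4 libraries that let Fzd9 be tested are all Apoe-intact, so it passed the filter only through the side where it was higher, and nothing is read from its p. Between hypertensive and normotensive libraries, 0 of 9 passed, against 0.0133%, and 2 of 9 had an unadjusted p under 0.05, against 16.7%. These were Fzd7, with a log2 difference of -0.70 (SE 0.25) and an adjusted p of 0.203, and Fzd4, with -0.64 (SE 0.29) and an adjusted p of 0.275. With median-of-ratios scaling their differences were -0.38 for Fzd7 and -0.35 for Fzd4. Array weights called both, as they did 13.9% of all genes. Fzd2, described without a test, was at -1.06 in the knockout and at -1.06 in the hypertensive comparison.

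Whether the 2 models together differ from the sum of each was asked with the interaction term. In it, 0 of 9 members passed, against 0% of all genes, and 0 of 9 had an unadjusted p under 0.05, against 1.38%. The tested terms lay between -0.57 (SE 0.60) for Fzd5 and 0.68 (SE 0.59) for Fzd4, and with median-of-ratios scaling between -0.82 for Fzd5 and 0.44 for Fzd4. For Fzd2 the term, given as a description, was -0.37 (SE 0.64), and -0.63 with median-of-ratios scaling. Between 8 female and 7 male libraries, 0 of 10 members passed, against 0.04% of all genes, and 0 of 10 had an unadjusted p under 0.05, against 2.45%. Of the female minus male differences 8 of 10 were above 0. Their median was 0.18, beside 0.02 for all genes, and the smallest adjusted p was 1.00.

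No pair of Frizzled genes passed a test for moving together from library to library. Over 15 libraries on the median-of-ratios scale, 0 of 45 pairs of members had a Benjamini-Hochberg adjusted permutation p under 0.05, and the median Pearson r was 0.12. The 45 pairs include those of Fzd2, whose HC/HT values chose the family. Libraries were permuted across groups and sexes, so the p cannot separate group differences from other shared movement. On the deposited scale, where libraries share the shift set by the abundant rows, the median r was 0.39. Fzd2 ran most closely with Fzd9 (r = 0.71, rho = 0.60) and Fzd7 (r = 0.69, rho = 0.75). Leaving out the 2 libraries farthest from the median of Fzd2, these were r = 0.76 and r = 0.67. They hold the low Fzd2 values of HC/HT valves and are a description. Fzd4 and Fzd6 ran most against each other (r = -0.62, rho = -0.59, permutation p of 0.012 and 0.024, adjusted p of 0.182 and 0.221), with r = -0.72 without the 2 farthest libraries and r = -0.24 on the deposited scale.

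Of 9515 named genes with a mean of at least 5 units, the 5 most like Fzd2 over the 15 libraries were Ndrg2 (r = 0.86), Tgfbr3 (0.86), Antxr1 (0.85), Stk32b (0.84) and Tenm3 (0.83). Tgfbr3 encodes betaglycan, a co-receptor for TGF-beta, and stood at 56.9 ± 9.94 units in HC/HT, 91.4 ± 29.2 in HC, 73.0 ± 31.1 in HT and 132 ± 38.7 in CON valves. Antxr1 encodes a collagen-binding membrane protein, and stood at 80.7 ± 6.89 units in HC/HT, 132 ± 37.5 in HC, 97.3 ± 38.3 in HT and 159 ± 50.6 in CON valves. For Fzd1 the most alike were Procr (r = 0.83), Vcan (0.81), Ap2b1 (0.79), Zfp281 (0.78) and Col16a1 (0.77). Vcan encodes versican, a large matrix proteoglycan of valves, and averaged between 1652 units in HC/HT and 1741 units in HT valves. The 2 lists had no gene in common. These genes were picked as the highest of many, and the r values carry no p.

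The rest of the Wnt pathway was counted from 92 listed genes by role, 88 of which had a row and 73 of which were tested. In all 8 tested comparisons 0 of 73 passed at an adjusted p under 0.05. At an unadjusted p under 0.05 there were 3 of 73 in HC against CON, where 4.01% of all genes did, and 19 of 73 in HT against CON, where 12.8% of all genes did. All but 6 differences were negative in HT against CON, with a median of -0.49 beside -0.42 for all genes. With median-of-ratios scaling it was -0.05 beside -0.01, so in HT against CON the pathway median lay close to that of all genes on both scales. In HC against CON the pathway median was lower, at -0.23 beside -0.02 for all genes. With median-of-ratios scaling it was -0.19 there, beside -0.01.

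Among ligands, Wnt9b was the most abundant per kb, at 28.7 units per kb over all libraries, and Wnt5a followed at 7.00 units per kb. Wnt9b, which is known in mice for a role in valve formation, averaged 231 ± 80.2 units in HC/HT, 120 ± 45.6 in HC, 116 ± 73.5 in HT and 78.2 ± 30.1 in CON valves. Every HC/HT library (148 to 309 units) lay above every CON library (34.2 to 102 units). Between these groups 10.6% of all genes did not overlap, or 7.66% with HC/HT lower. Wnt5a, the main ligand of signalling without beta-catenin, averaged 47.8 ± 21.6 units in HC/HT, 61.8 ± 15.3 in HC, 49.3 ± 26.7 in HT and 58.3 ± 29.3 in CON valves. Wnt9a was named for its low HC/HT values, which were 0.980, 0.588 and 8.42 units. HC valves had between 5.09 and 20.9 units, HT valves between 3.92 and 10.7 units and CON valves between 8.62 and 21.6 units. The highest HC/HT value thus lay within the HC and HT ranges. The log2 difference of Wnt9a in HC/HT against CON was -2.55 (SE 0.56). It chose the gene and is given without a test, like all others of that contrast.

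Ligand release needs Wls, the carrier that takes Wnt proteins to the cell surface. Wls averaged 62.5 ± 19.0 units in HC/HT, 72.6 ± 14.8 in HC, 60.2 ± 18.4 in HT and 69.8 ± 20.8 in CON valves. Among co-receptors, Lrp6 averaged 102 ± 2.55 units in HC/HT, 117 ± 11.9 in HC, 84.7 ± 25.2 in HT and 131 ± 19.2 in CON valves. All 10 co-receptor genes were below 0 in HT against CON (median -0.63, and -0.21 with median-of-ratios scaling). So were 86.7% of all genes tested (median -0.42, and -0.01 with median-of-ratios scaling). Lrp6 itself was at -0.66 (SE 0.28) with an adjusted p of 0.371, and at -0.19 with median-of-ratios scaling. Smo, the Hedgehog pathway relative of the Frizzled family, averaged 26.2 ± 5.17 units in HC/HT, 36.8 ± 16.7 in HC, 22.7 ± 8.76 in HT and 37.2 ± 18.1 in CON valves.

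Secreted antagonists bind Wnt proteins or co-receptors before they meet a Frizzled. Sfrp1, a soluble protein with a Frizzled-like Wnt-binding domain, averaged 65.3 ± 19.1 units in HC/HT, 121 ± 35.2 in HC, 66.6 ± 34.1 in HT and 139 ± 17.4 in CON valves. Its log2 difference was -1.31 (SE 0.39) in HT against CON with an adjusted p of 0.351, and -0.84 with median-of-ratios scaling. In HC against CON it was -0.34 (SE 0.41) with an adjusted p of 1.00. Dkk3 averaged 603 ± 138 units in HC/HT, 1050 ± 435 in HC, 807 ± 440 in HT and 1300 ± 523 in CON valves. No test of either passed.

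Receptor turnover sets how many Frizzled proteins stay at the surface: Znrf3 and Rnf43 remove them, and R-spondins with Lgr receptors prevent this. All 6 tested genes of this list had negative log2 differences in HC/HT, HC and HT valves against CON, with medians of -0.99, -0.87 and -0.79. Of all genes tested, 66.8%, 52.7% and 86.7% were negative there, with medians of -0.20, -0.02 and -0.42. The list medians with median-of-ratios scaling were -0.79, -0.84 and -0.37, and 0 of 6 passed the test in HC or HT valves. The 3 comparisons share the CON libraries. Rspo3 averaged 25.8 ± 9.34 units in HC/HT, 38.1 ± 8.84 in HC, 21.9 ± 11.9 in HT and 59.9 ± 24.4 in CON valves. Znrf3 averaged 17.2 ± 1.10 units in HC/HT, 19.4 ± 7.28 in HC, 19.9 ± 4.84 in HT and 27.7 ± 6.85 in CON valves.

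Inside the cell, Dishevelled passes the signal on to beta-catenin. In the list of Dishevelled and the beta-catenin core, 16 of 16 differences were negative in HT against CON with a median of -0.44, which was -0.01 with median-of-ratios scaling. Of all genes tested, 86.7% were negative there, with a median of -0.42. In HC against CON the median of this list was -0.20, beside -0.02 for all genes, and -0.19 with median-of-ratios scaling. Ctnnb1, the gene for beta-catenin, averaged 165 ± 44.5 units in HC/HT, 233 ± 40.7 in HC, 123 ± 30.3 in HT and 256 ± 60.4 in CON valves. The planar polarity and non-canonical list had a median of -0.29 in HT against CON, which became 0.10. Of the beta-catenin target genes 7 were tested and 0 passed, with a median of -0.26 in HC against CON. Ccnd1, a cell cycle regulator, averaged 79.8 ± 55.8 units in HC/HT, 64.8 ± 20.2 in HC, 68.0 ± 56.7 in HT and 49.6 ± 14.8 in CON valves. Apcdd1, a Wnt-induced membrane inhibitor, averaged 28.3 ± 10.7 units in HC/HT, 30.5 ± 9.02 in HC, 24.6 ± 9.28 in HT and 44.2 ± 20.4 in CON valves.

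**Figure D4:**
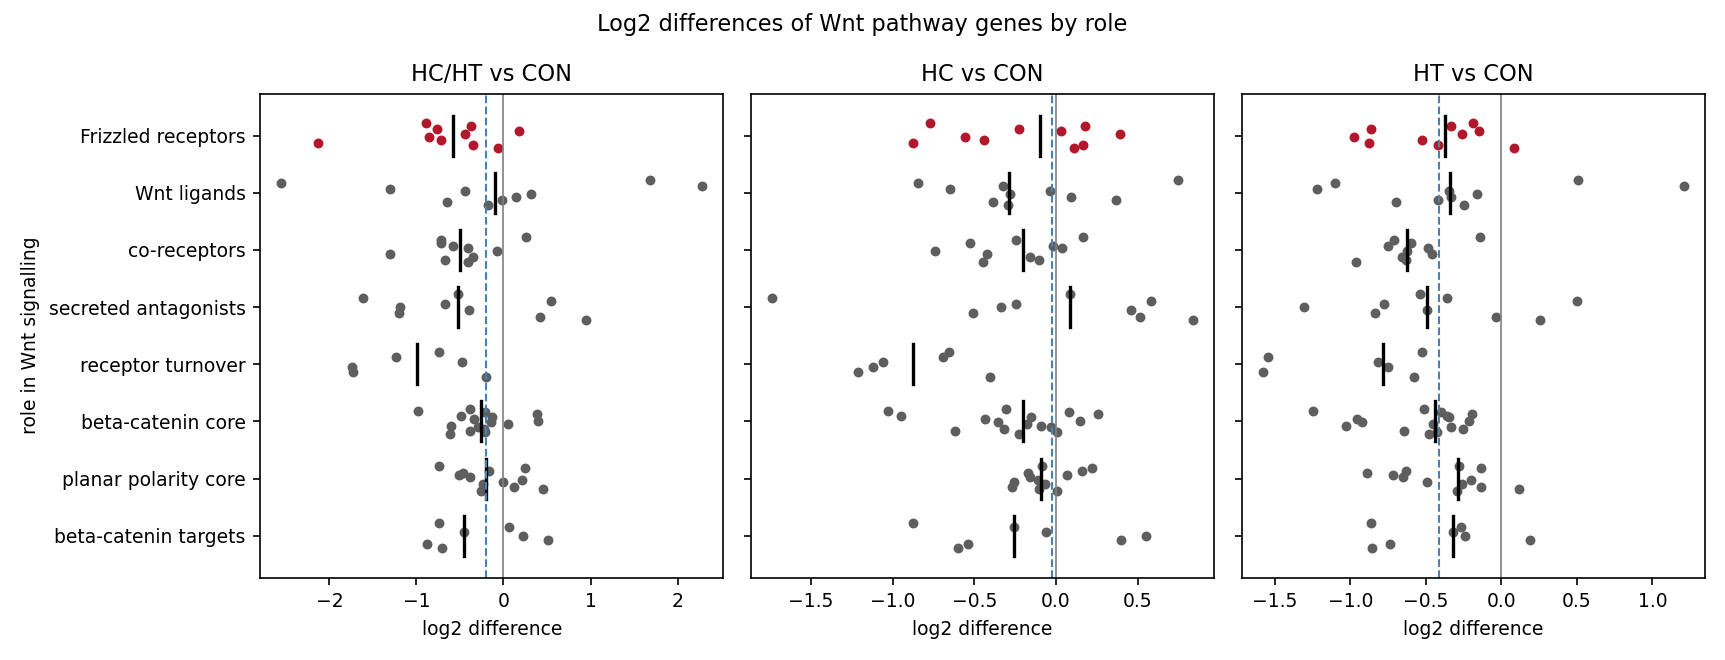
Log2 differences on the deposited scale of the Frizzled genes (red) and of 7 other role lists of the Wnt pathway (grey) in HC/HT, HC and HT against CON. Each point is a tested gene, black bars are list medians and the dashed line is the median of all genes tested (-0.20, -0.02 and -0.42). The Wnt release genes and Smo are not drawn. Frizzled differences lie between -2.13 and 0.18 in the left panel, with Fzd2 apart at the low end, and the receptor turnover list lies below 0 in all 3 panels.

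Markers of the cell types in a valve sample were summed beside these values. Valve interstitial and fibroblast markers, 12 genes, summed to between 6153 and 8815 units in HC/HT, 6379 and 17688 in HC, 5271 and 14229 in HT, and 7375 and 18748 in CON valves. Against CON, 11 of 12 were lower in HC/HT (median -0.65, and -0.45 with median-of-ratios scaling). In HT valves 12 of 12 were lower (median -0.63, and -0.16 with median-of-ratios scaling). Of all genes tested, 66.8% were lower in HC/HT and 86.7% in HT valves, with medians of -0.20 and -0.42. Smooth muscle contractile markers, 15 genes, summed to between 286 and 427 units in HC/HT, 346 and 1149 in HC, 357 and 1776 in HT, and 542 and 3726 in CON valves. All 15 had lower fitted values in HC/HT than in CON valves, with a median difference of -2.17. Acta2 averaged 54.9 ± 28.0 units in HC/HT, 131 ± 117 in HC, 271 ± 156 in HT and 482 ± 410 in CON valves, and Mylk 13.5 ± 2.71 in HC/HT, 30.7 ± 21.5 in HC, 44.0 ± 30.9 in HT and 104 ± 35.7 in CON valves. HC replicate 4, whose Fzd2 lay in the HC/HT range, had the lowest sums of its group for contractile (346 units) and fibroblast markers (6379 units). The same held for melanocyte (101 units) and nerve and Schwann cell markers (249 units), all on the deposited scale. For endothelial, macrophage, cardiomyocyte and adipocyte markers another HC library had the lowest sum. HC replicate 4 also had the lowest median-of-ratios factor of its group (0.865), so its typical gene was low as well. In the CON libraries, in order of replicate, Fzd2 stood at 25.9, 22.6, 9.31 and 6.66 units. Contractile sums there were 2963, 1195, 3726 and 542 units, and fibroblast sums 11704, 18748, 12544 and 7375 units. Whether Fzd2 goes with either sum was not tested.

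Cardiomyocyte markers, 12 genes, summed to between 175 and 356 units in HC/HT, 211 and 1382 in HC, 380 and 12629 in HT, and 517 and 3493 in CON valves. The high sum was that of HT replicate 2, one of the libraries of low correlation. All 12 had lower fitted values in HC/HT than in CON valves, with a median difference of -2.46, where 66.8% of all genes were lower. Endothelial markers, 12 genes, summed to between 767 and 1140 units in HC/HT, 845 and 1234 in HC, 597 and 1092 in HT, and 780 and 1333 in CON valves. Between hypertensive and normotensive libraries 1 of 12 passed, against 0.0133% of all genes. This was Clec14a, an endothelial surface protein, which was lower (-1.43, adjusted p of 0.037). The median of the endothelial list there was -0.38, and -0.06 with median-of-ratios scaling. Macrophage markers, 12 genes, summed to between 2063 and 3085 units in HC/HT, 2369 and 4789 in HC, 198 and 1676 in HT, and 991 and 1593 in CON valves. In knockout against Apoe-intact libraries 5 of 12 passed, all higher (Cd68, Lyz2, C1qb, Cd14 and Ctss), against 1.47% of all genes, and 1 of 15 contractile markers passed, Myl9, which was lower. In HC/HT against HT valves 2 of 12 macrophage markers (Cd68 and Lyz2) and 2 of 8 melanocyte markers (Pmel and Tyrp1) passed, all higher, against 0.373% of all genes. Of the 3 remaining lists, melanocyte markers summed to between 35.8 and 294 units, nerve and Schwann cell markers to between 228 and 593 units and adipocyte markers to between 6.95 and 42.2 units over the libraries. The summed valve markers were above 0 in every library, and 0 markers were at 0 in all libraries. The part of cell makeup in the Frizzled values was not tested.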

How the data were processed

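RNA was measured in mouse aortic valves. Per the labels' protocols, cDNA was amplified from 1 ng of total RNA with Nugen Ovation RNA-Seq v2. The submitters' processing notes list, in no order, edgeR (no version), SAMtools 0.1.9, Bowtie 1.0.1 and FastQC 0.11.2, with mm10 as the build. The deposited values are whole numbers that the authors normalised from counts, and they are handled as a score. The normalisation step and the use of strand are not given in the sources used here. Of 16 planned libraries 15 were used. HC/HT replicate 4 was not analysed here. The table has 1 column of values without a name, which was not used, since no label ties it to a sample; whether it holds that library is unknown.

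Values were multiplied by one factor. A gene was tested where 4 or more libraries reached 1 unit (15004 genes, all 10 Frizzled genes among them). Log2(value + 1) was fitted with limma 3.58.1 in R 4.3.3 (eBayes with trend and robust), with all 15 libraries in 1 fit and group and sex as terms. Two-sided p-values were Benjamini-Hochberg adjusted over all genes of a comparison, with 0.05 as the threshold. The model was tested on simulated data, which held no shift shared by a whole library and so say nothing about scaling. Correlations used 100000 permutations. Whole reads could not be recovered exactly, so no count test was run.

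The members and gene lists were chosen with earlier results of these data known. Named are all Frizzled genes, Apoe, the 2 most abundant genes of a list or those that passed, and the 5 genes most like Fzd2 and Fzd1. Wnt9a, Wnt7a and Sost were named after their values were seen. Gene lengths and positions are those of GENCODE M21 (GRCm38). Alternatives were 3 other scalings, other pseudocounts, filters and fits, and leaving out libraries.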

Additional observations from a re-analysis of the deposited data

Results flagged for a closer look

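Fzd5 in HT valves was marked by a single high library. HT replicate 1 stood at 12.8 units, against 5.29, 5.68 and 5.68 units in the other 3. On the log2(value + 1) scale its gap to the nearest of the others was 0.923 of the range of the group, above Dixon's critical value at the 95% level for 4 libraries. The check did not use median-of-ratios scaling. That scaling raises HT replicates 2 and 3 most of all libraries (factors 0.626 and 0.660), so the mark holds for the deposited scale only. Of 30 groups of 4 checked for the 10 members, 1 was marked, and chance marks about 1 in 20. HC/HT groups, with 3 libraries, were not checked. HT replicate 1 also had the highest Fzd1 value of the series (189 units) and the highest summed Frizzled level per kb, 68.4 units per kb.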

How the results depend on the processing

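The 28 alternatives were 13 other settings and the omission of each of 15 libraries. The count of Frizzled genes called stayed at 0 in all tested comparisons under all of them but array weights. With limma array weights, 1 was called in HT against CON (Fzd7, -1.11, adjusted p of 0.049), where 2.75% of all genes were called. Between hypertensive and normotensive libraries 2 were called, Fzd4 (-0.83, adjusted p of 0.048) and Fzd7 (-0.92, adjusted p of 0.014), where 13.9% of all genes were. The Fzd2 log2 difference in HC/HT against CON lay between -2.38 and -1.54 over the 13 other settings, weakest with a pseudocount of 4. Leaving out 1 library gave between -2.39 (without CON replicate 4) and -1.85 (without CON replicate 1), and leaving out the 3 libraries of lowest correlation gave -2.04. With the replicate number as a block it was -2.29, and the block called 0 members in every comparison. Deviations of same-numbered libraries from their group means had a median r of 0.07 over 21 pairs, against -0.07 for other pairs. Of these 21, 16 were above 0 and 8 above 0.1, and 4 of 15 libraries were closest to one of their own number, so the numbers were not taken to pair mice. Of 90 differences (10 genes in 9 comparisons), 46 changed sign under at least 1 alternative. None of these 46 exceeded 0.42 in size before, and none had passed the test. A fit of only the groups compared was not run for the interaction, the pooled comparisons and sex. Depth limits Fzd8, Fzd9 and Fzd10 most.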

Other observations

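Wnt7a, a ligand chosen here after its values were seen, had 24.4, 12.6 and 2.45 units in HC/HT valves and between 0 and 3.53 units in HC valves. HT valves had 14.4, 1.37, 18.4 and 0 units, and CON valves between 0.196 and 3.04 units. High values thus occurred in some hypertensive libraries only, and its difference between hypertensive and normotensive libraries was 1.91 on the log2 scale. These values chose the gene, so the difference of Wnt7a is given without a test. Sost, an inhibitor of Wnt co-receptors also chosen after its values were seen, averaged 0.131 units in HC/HT and 0 units in HC valves, against 2.25 ± 1.82 in HT and 7.20 ± 8.46 units in CON valves. It was tested only because of Apoe-intact libraries, so no p is given.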
